A study of Mus musculus with 18 samples.

Results

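Hyperplastic granule cell precursors of the young mouse were compared with normal granule neuron progenitors for where the transcription factors NFIA and NFIB were found on chromatin. The comparison rests on 12 of the 18 libraries of the study: 6 of hyperplasia (called PNC in the labels) at postnatal day 28 and 6 of normal granule neuron progenitors (GNP) at postnatal day 7. The 6 remaining libraries, from medulloblastomas of adult mice, were no side of the comparison. They entered the gene fit for a shared estimate of the spread, counted in the filter on low values and helped to define the regions, and their own values are given beside the results. Stage was taken from the labels. Each stage had 3 preparations, and each preparation 1 NFIA and 1 NFIB library, whose summits were added. In GNP and hyperplasia, the titles of the third preparation carry another date than the rest and call its libraries merged. What was merged is not stated, and each was used as 1 preparation. Libraries were made by CUT&Tag, where a transposase tethered to an antibody cuts the chromatin around the protein of interest, from 100000 cells each isolated on a Percoll gradient. The study used a mouse model of medulloblastoma made by genetic engineering. The genotype, the strain and the alleles of either stage are not given in the sources used here. Stage and age changed together, so that an effect of disease and one of age cannot be told apart. No source says that the preparations came from separate animals, so p-values measure only the spread between these preparations.

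Granule neuron progenitors divide in the outer layer of the postnatal cerebellum under the drive of sonic hedgehog (SHH), then leave the cell cycle, migrate inward and become the granule neurons of the adult. In mice whose SHH pathway stays active, some of these cells persist as preneoplastic hyperplasia, from which medulloblastoma can arise. NFIA, NFIB, NFIC and NFIX form the nuclear factor I (NFI) family. They bind DNA as dimers at a palindrome with the arms TTGGC and GCCAA, also bind a single arm, and take part in the maturation of granule neurons and in the formation of glia.

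What was deposited for each library is a list of summits, the single bases at which the peaks reached their maximum, each with a score, the −log10 p or q that the peak caller gave it. To make lists of unequal length comparable, only the 30000 highest-scoring summits on the 19 autosomes were used from each library (top summits). The score at the end of that list ran from 3.90 to 9.84 across the 12 libraries, and in each of them the first summit left out had the same score as the last one kept. Sequencing depth is unknown, and a place without a top summit may still hold a weaker one. One library stood apart. The second NFIA library of hyperplasia listed 362180 summits, against 55925 to 170971 in the other 11, and 58.2% of its top summits lay in regions shared with other libraries, against 84.8% to 94.3% in the other hyperplasia libraries. At the end of its list, 20.4% of the top summits had the same score. The titles and the names of the deposited data disagreed on the antibody target for 4 of the 12 libraries and on the number for 8, while the stage was the same in both. NFIA and NFIB were therefore not compared with each other.

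The sequences of promoters at which top summits differed between the stages are shown first. Among the regions defined further on, 37 of 900 found mainly in hyperplasia and 56 of 1161 found mainly in GNP overlapped a promoter window. Of all 42004 regions 7761 did (18.5%), a larger share than of either set. A window was taken as the 250 bases before and 50 bases after a RefSeq gene start. Windows are from GRCm38.p6, the patched form of the build of the summit lists. The 4 windows printed first are at protein-coding genes on which a region differed between the stages, and the fifth lies at a site bound in all 12 libraries. The window of Ubxn1, another such gene, holds 0 NFI arms and is not printed. Its region had top summits in 5 hyperplasia libraries and 1 GNP library. These regions differ in top summits, without a test, and summits of any score were listed more widely. At the regions of Aox1 and Ubxn1, 5 of 6 GNP libraries listed one. At those of Tlx3, Nfe2l1 and Trmt112, 2, 3 and 5 of 6 hyperplasia libraries did. Capitals mark the NFI arm on either strand, TTGGC or its reverse complement GCCAA.
Aox1 encodes an aldehyde oxidase, and its window at chr1:58029719-58030018 on the plus strand lay within a region with top summits in 5 hyperplasia libraries and 1 GNP library. It holds 3 arms.
Aox1: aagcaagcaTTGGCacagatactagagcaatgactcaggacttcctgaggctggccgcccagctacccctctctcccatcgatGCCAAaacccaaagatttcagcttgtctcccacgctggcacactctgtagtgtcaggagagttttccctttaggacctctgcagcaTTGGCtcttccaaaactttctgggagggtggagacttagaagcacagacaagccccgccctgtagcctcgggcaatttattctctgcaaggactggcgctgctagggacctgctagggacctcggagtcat
Tlx3 encodes a homeobox factor of developing neurons, and its window at chr11:33203539-33203838 on the minus strand overlapped a region (chr11:33203423-33203748) with top summits in 5 GNP libraries and 0 hyperplasia libraries. It also holds 3 arms.
Tlx3: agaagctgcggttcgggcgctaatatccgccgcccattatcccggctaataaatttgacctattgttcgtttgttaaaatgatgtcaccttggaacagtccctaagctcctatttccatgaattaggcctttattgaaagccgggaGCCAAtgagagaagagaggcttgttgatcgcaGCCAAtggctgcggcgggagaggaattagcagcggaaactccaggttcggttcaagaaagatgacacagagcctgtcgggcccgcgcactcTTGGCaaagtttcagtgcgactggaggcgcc
Nfe2l1 encodes a bZIP factor that controls proteasome genes, and its window at chr11:96824078-96824377 on the minus strand overlapped a region (chr11:96824116-96824587) with top summits in 6 GNP libraries and 1 hyperplasia library. It holds 5 arms, all in the same orientation, and the last printed lies outside the region. The other windows of Nfe2l1 at this region hold 3 and 1 arms and are not printed.
Nfe2l1: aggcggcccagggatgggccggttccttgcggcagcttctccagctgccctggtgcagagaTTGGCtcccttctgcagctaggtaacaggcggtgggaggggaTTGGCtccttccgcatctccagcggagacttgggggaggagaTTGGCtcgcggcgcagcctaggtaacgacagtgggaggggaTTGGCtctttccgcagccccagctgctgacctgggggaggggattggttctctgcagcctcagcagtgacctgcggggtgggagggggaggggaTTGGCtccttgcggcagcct
Trmt112 encodes a partner of several methyltransferases, and its window at chr19:6909448-6909747 on the plus strand overlapped a region (chr19:6909521-6909996) with the same GNP and hyperplasia counts as that of Nfe2l1. It holds 1 arm.
Trmt112: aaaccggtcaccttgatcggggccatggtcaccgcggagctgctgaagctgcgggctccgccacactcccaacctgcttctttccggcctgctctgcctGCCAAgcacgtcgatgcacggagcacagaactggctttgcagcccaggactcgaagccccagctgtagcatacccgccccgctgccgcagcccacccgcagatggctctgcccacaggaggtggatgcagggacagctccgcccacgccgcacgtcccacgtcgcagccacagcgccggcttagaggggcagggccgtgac
Tbl2 had the best-ranked site of all 12 libraries, which was never below rank 70. Its window at chr5:135149436-135149735 on the plus strand holds 3 arms, the last of them outside the region.
Tbl2: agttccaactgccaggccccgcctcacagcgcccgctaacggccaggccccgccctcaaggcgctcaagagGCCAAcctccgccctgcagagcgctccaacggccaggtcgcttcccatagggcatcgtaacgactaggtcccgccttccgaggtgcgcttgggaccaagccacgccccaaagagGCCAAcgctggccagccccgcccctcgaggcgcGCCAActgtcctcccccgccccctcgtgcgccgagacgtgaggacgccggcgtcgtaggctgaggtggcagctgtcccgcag
An arm on either strand occurred in 25 of 48 windows (52.1%) at regions found mainly in hyperplasia and in 41 of 64 windows (64.1%) at regions found mainly in GNP. The same letters occurred in 60.4% of the 3318 windows at regions of all 12 libraries and in 46.7% of all 31396 windows of the table. The full palindrome, an arm TTGGC then any 5 bases then GCCAA, occurred in 0 of the 48, 0 of the 64, 1 of the 3318 and 12 of all windows. The shares count arms anywhere in a window, also past the region it overlaps. These shares are descriptions of letters in windows of 300 bases and carry no test.

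The question of the main comparison was at which genes NFI binding differed between hyperplasia and normal progenitors. Top summits were assigned to the closest protein-coding gene within 100 kb, the summits of both libraries of a preparation were added, and limma's moderated test was run on log2(summits + 0.5) over the 8580 genes that averaged 2 summits or more per preparation. A gene was called at an adjusted p (Benjamini-Hochberg) under 0.05. By this rule 7 genes were called, 0.0816% of those tested, 4 with more summits in hyperplasia (0.0466%) and 3 with fewer (0.035%). At an unadjusted p under 0.05 there were 1157 genes, 571 with more and 586 with fewer. A fit of the 6 GNP and hyperplasia preparations alone called 12 genes. The median log2 difference over all genes was 0.00.

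Sepsecs, which encodes the enzyme that completes selenocysteinyl-tRNA (chr5:52640089-52669764), had no top summit in the 3 GNP preparations. It had 5, 5 and 4 in hyperplasia (adjusted p = 0.00353, limma). Dnah3, an axonemal dynein heavy chain (chr7:119921332-120095297), had 0 in each GNP preparation and 5, 4 and 4 in hyperplasia (adjusted p = 0.0189, limma). With a group at 0, the fitted log2 differences of 3.36 (SE 0.20) and 3.27 (SE 0.28) depend on the added 0.5 and are no bounds. Both genes passed the filter on low values only through hyperplasia and tumors, so their calls are not independent of it. With no filter, 71 genes were called, the 7 among them. Tumors held 2, 4 and 3 summits at Sepsecs and 2, 3 and 1 at Dnah3. The zeros are zeros of the top list: at the 4 regions of Sepsecs, 4 or 5 of the 6 GNP libraries did list a summit of lower score. When every listed summit was used, scaled to equal totals, the difference at Sepsecs was -0.33 and not called. At Dnah3 the region at chr7:120010294-120010603 had a top summit in 4 hyperplasia libraries, and no GNP library listed one there at any score, while all 6 hyperplasia libraries did.

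Nod2, an intracellular sensor of bacterial cell wall fragments (chr8:88647315-88688474), had 2 summits in each GNP preparation and 6, 6 and 5 in hyperplasia. The log2 difference was 1.30 (SE 0.12, adjusted p = 0.0255, limma). Its summits in tumors were 6, 5 and 6, at the level of hyperplasia. The gene's region at chr8:88655297-88655637, which lies 8.15 kb inside from its start, had top summits in 6 of 6 hyperplasia libraries, 0 of 6 GNP libraries and 6 of 6 tumor libraries. With all summits scaled, the difference at Nod2 turned to -0.15 and was not called. Ep400, the ATPase of a chromatin remodelling and histone acetylation complex (chr5:110664373-110770927), had 2 summits in each GNP preparation and 4 in each preparation of hyperplasia and of tumor (log2 difference 0.85, SE 0.09, adjusted p = 0.043, limma). The start of Ep400 carried a site in all 12 libraries. The second site, near the other end of the gene at chr5:110665614-110666121, had top summits in 5 hyperplasia libraries, 0 GNP libraries and 5 tumor libraries.

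Slc7a5 had the largest decrease of the 3 genes with fewer summits. It encodes LAT1, the transporter that brings large neutral amino acids such as leucine into growing cells (chr8:121881146-121907686). GNP preparations had 14, 14 and 15 summits there, hyperplasia 6, 6 and 4, and tumors 10, 11 and 10. The means were 14.3 ± 0.577 and 5.33 ± 1.15 (SD, n = 3 each), and the log2 difference was -1.37 (SE 0.15, adjusted p = 0.043, limma). All 3 hyperplasia preparations lay below every GNP and every tumor preparation. By single library, GNP had 6 to 8 summits and hyperplasia 2 to 4. The site at chr8:121889899-121890786 had scores of 7.87 to 20.2 in the 6 GNP libraries and a top summit in all 6 tumor libraries, but none in hyperplasia, where 4 libraries listed a weaker summit. A second site at chr8:121898593-121898902 was kept by all 18 libraries, with scores of 17.1 to 43.1 in GNP and 9.64 to 36.3 in hyperplasia.

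Nr1h4 and Adgrd1 were the other genes with fewer summits. Nr1h4, the bile acid receptor FXR (chr10:89454234-89533645), had 5 in each GNP preparation, 2 in each hyperplasia preparation and 4, 3 and 4 in tumors (log2 difference -1.14, SE 0.13, adjusted p = 0.043, limma). Adgrd1, an adhesion G protein-coupled receptor (chr5:129096750-129204599), had 20, 21 and 18 in GNP, 11, 9 and 10 in hyperplasia and 11, 13 and 13 in tumors (log2 difference -0.94, SE 0.11, adjusted p = 0.049, limma). The groups did not overlap at either gene. At Adgrd1 a region at chr5:129144062-129144477 had top summits in 5 GNP libraries and in none of the 12 libraries of hyperplasia and tumor.

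The calls rested on small counts and on single preparations. Of the 7 genes, 5 had the same count in all 3 preparations of a stage, against 20.3% of all genes tested, and such genes have the smallest spread. Without the second GNP preparation no gene was called (997 at an unadjusted p under 0.05, limma), nor without the second hyperplasia preparation (1013 at that p), and the count was also 0 when every listed summit was used, scaled to equal totals (726 at that p). When only the 3059 genes that averaged 5 summits or more were tested, 86 were called (2.81%), 40 with more (1.31%) and 46 with fewer summits in hyperplasia (1.5%). Slc7a5 and Adgrd1 were called there too, and 51 of the 86 were also called when the libraries were fitted singly with the preparation as a random block. The genes of the next paragraphs come from this more heavily bound set, and their adjusted p-values are those over its 3059 genes by limma.

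**Figure D1:**
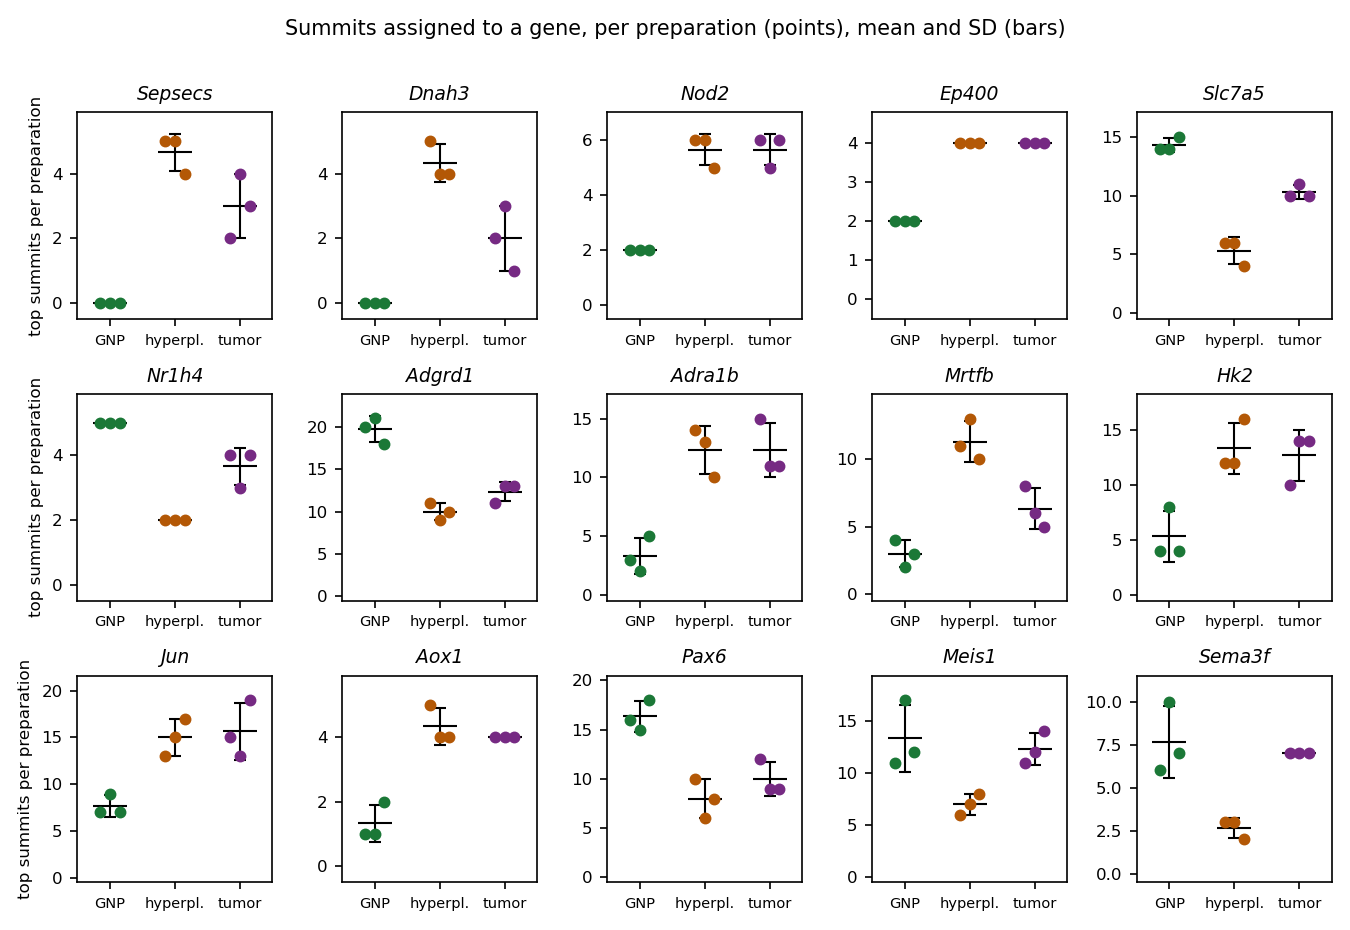
Top summits per preparation at 15 genes. Each panel is 1 gene, with stage on the x axis and the number of top summits of both libraries of a preparation on the y axis, which includes 0; points are preparations, 3 a stage, and bars give the mean and SD. Slc7a5 lies at 14 to 15 in GNP and 4 to 6 in hyperplasia, and Sepsecs and Dnah3 at 0 in GNP.

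Among the more heavily bound genes with more summits in hyperplasia, Adra1b and Mrtfb had the smallest p. Adra1b, the alpha-1B adrenergic receptor, had 3, 2 and 5 summits in GNP, 14, 13 and 10 in hyperplasia and 15, 11 and 11 in tumors (log2 difference 1.81, SE 0.26, adjusted p = 0.00114, limma). Mrtfb, a coactivator of serum response factor, had 4, 2 and 3 in GNP, 11, 13 and 10 in hyperplasia and 8, 6 and 5 in tumors (1.79, SE 0.27, adjusted p = 0.00114, limma). Hyperplasia lay above GNP without overlap at both genes. Hk2, the hexokinase that starts glycolysis in proliferating cells, had 4, 8 and 4 in GNP, 12, 12 and 16 in hyperplasia and 10, 14 and 14 in tumors (1.30, SE 0.24, adjusted p = 0.0102, limma). Jun, a subunit of the AP-1 transcription factor, had 7, 9 and 7 in GNP, 13, 15 and 17 in hyperplasia and 15, 13 and 19 in tumors (0.93, SE 0.19, adjusted p = 0.0128, limma). Ext2, which builds heparan sulfate chains, and Il12a, Rai14, Stard13, Lrch1 and Jcad completed the 10 genes of smallest p with more summits. Of the 10, Hk2 and Stard13 were not called when the libraries were fitted singly with the preparation as a random block. Over all 8580 genes none of these 10 passed, with an adjusted p of 0.0989 at Adra1b and 0.0976 at Mrtfb. Adra1b, Mrtfb, Jcad, Il12a, Rai14 and Lrch1 averaged under 5 summits in GNP and passed the filter of 5 through hyperplasia and tumors. Their calls are not independent of it.

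The gains at Adra1b were spread over more than 100 kb. Of its 8 regions, 4 counted as gained by the rule given further on. The first of these lay 53.0 kb inside the gene from its start (chr11:43847868-43848616), with top summits in 6 hyperplasia libraries, 0 GNP libraries and 5 tumor libraries. The other 3 lay before the start (chr11:43911521-43912016, chr11:43958535-43958986 and chr11:43989903-43990263), with 5, 6 and 5 hyperplasia libraries against 0, 1 and 0 GNP libraries. Tumor libraries had top summits there in 1, 6 and 6 of 6. A site inside the gene at chr11:43836117-43836674 was bound in all 12 libraries of the comparison, with scores of 5.52 to 18.2 in GNP and 4.91 to 28 in hyperplasia. At the 4 gained regions, 3 to 5 of the GNP libraries listed a summit below the top list. Hk2 had a like pair of regions within the gene, at chr6:82756761-82757239 and chr6:82736836-82737416, each in 6 hyperplasia and 0 GNP libraries, and 4 GNP libraries listed a weaker summit at each. At Jun, a region at chr4:95037929-95038248 that lies 14.1 kb from the start was in 6 hyperplasia libraries and 0 GNP libraries, and 1 GNP library listed a weaker summit.

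**Figure D2:**
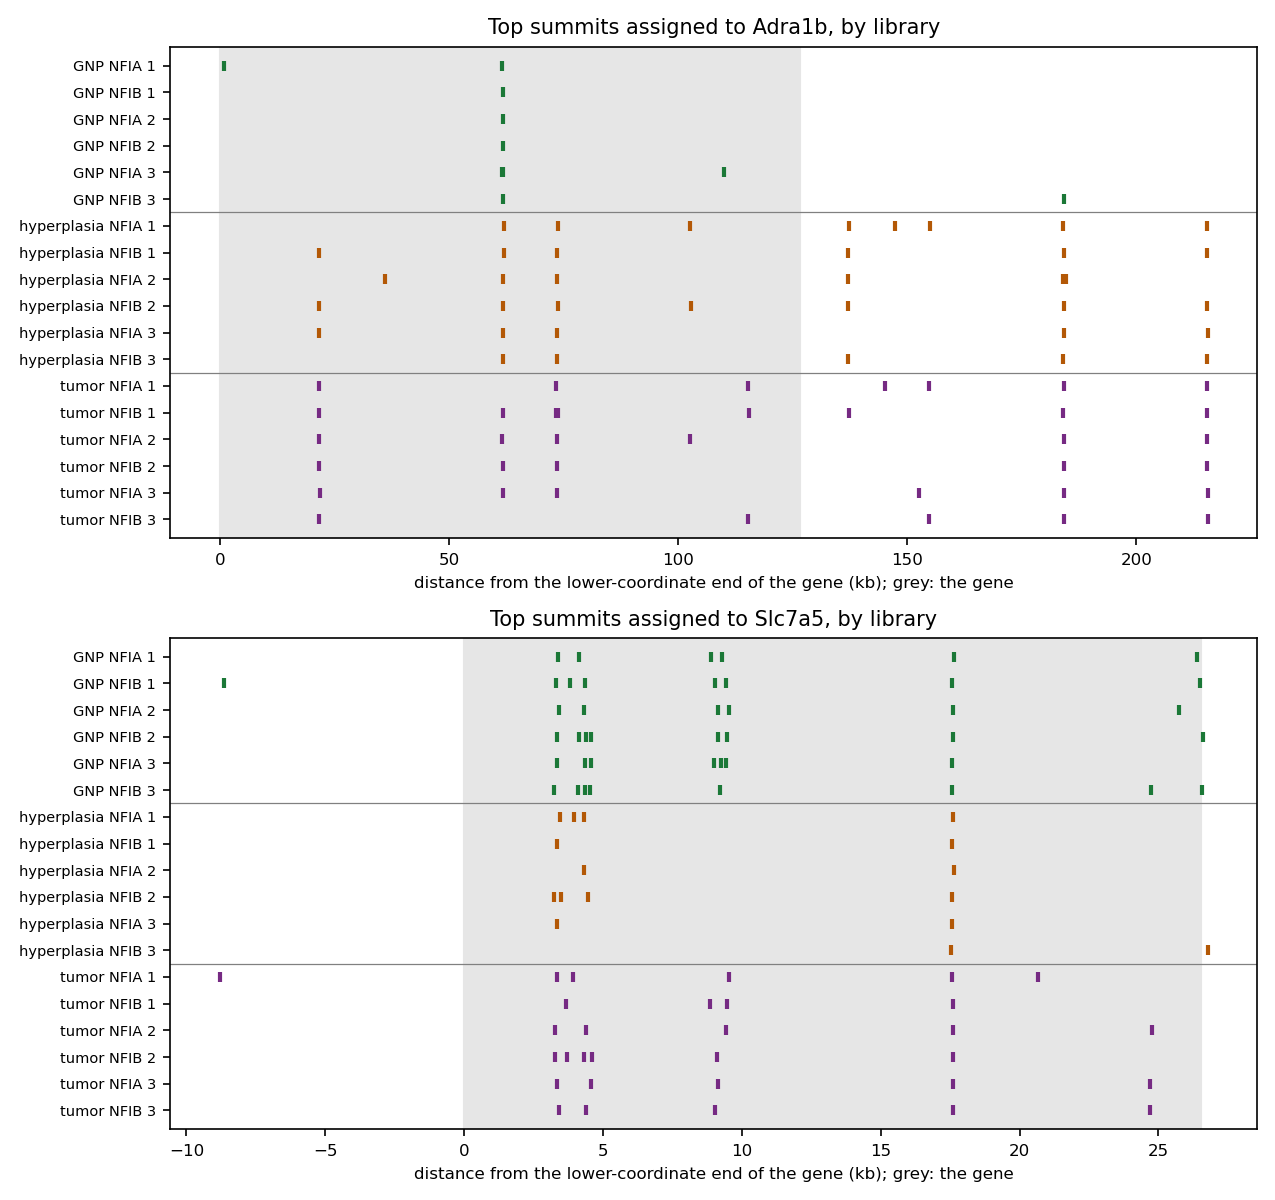
Top summits of the 18 libraries at Adra1b and Slc7a5. The x axis is the distance in kb from the lower-coordinate end of the gene, each row is 1 library, each tick 1 top summit, and the grey band is the gene. At Adra1b the hyperplasia and tumor rows hold columns of ticks that are absent from nearly all GNP rows, and at Slc7a5 the column of ticks near 9.2 kb is present in GNP and tumor rows and absent from hyperplasia rows.

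Pax6 and Meis1 were among the more heavily bound genes with fewer summits in hyperplasia. Over all genes tested neither was called, with an adjusted p of 0.104 at Pax6 (limma). Pax6, a transcription factor that marks granule progenitors and their progeny (chr2:105668896-105698410), had 16, 15 and 18 in GNP, 10, 6 and 8 in hyperplasia and 12, 9 and 9 in tumors (log2 difference -1.01, SE 0.20, adjusted p = 0.0126, limma). Its region upstream of the start, chr2:105660100-105661032, had top summits in all 6 GNP libraries with scores of 6.58 to 21.9, in 0 hyperplasia libraries and in 2 tumor libraries. All 6 hyperplasia libraries listed a weaker summit there, so that the site had left the top list rather than the full list. Meis1, a homeobox factor that acts with Pax6 in granule cells, had 11, 17 and 12 in GNP, 6, 7 and 8 in hyperplasia and 11, 12 and 14 in tumors (-0.87, SE 0.20, adjusted p = 0.0260, limma).

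Several of these genes were again at the GNP level in tumors. Sema3f, a secreted guidance cue, had 6, 10 and 7 summits in GNP, 3, 3 and 2 in hyperplasia and 7 in each tumor preparation (log2 difference -1.35, SE 0.27, adjusted p = 0.0126, limma). It lost the top summits of 2 regions, both in 6 GNP libraries and 0 hyperplasia libraries. The first, chr9:107714405-107715017, was in 6 tumor libraries, and the second, chr9:107701644-107702045, in 2. Mitf, the basic helix-loop-helix zipper factor best known from pigment cells, had 7, 8 and 9 in GNP, 3, 0 and 2 in hyperplasia and 8, 8 and 6 in tumors (-2.37, SE 0.48, adjusted p = 0.0126, limma). Dkk3, a secreted member of the Dickkopf family, had 7, 9 and 8 in GNP, 4, 2 and 3 in hyperplasia and 7, 6 and 8 in tumors (-1.31, SE 0.27, adjusted p = 0.0128, limma). Among the 10 genes of smallest p with fewer summits were also Ppp1r14c, with 16, 17 and 16 against 9, 6 and 9, the transporter gene Slc6a17, with 13, 13 and 14 against 6, 5 and 7, and the calsyntenin gene Clstn2, with 35, 38 and 41 against 23, 28 and 25. Over all genes tested, none of the genes of this paragraph was called. Their adjusted p there was 0.0976 at Sema3f, Ppp1r14c, Slc6a17 and Clstn2, 0.0989 at Dkk3 and 0.195 at Mitf (limma). Sema3f, Mitf and Dkk3 averaged under 5 summits in hyperplasia and passed the filter of 5 through GNP and tumors. Neither their calls nor their level in tumors is independent of that filter.

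The genes next in p over all 8580, which were not called, were mostly bound at few sites. Foxn4, a forkhead factor, had 2 in each GNP preparation and 4, 4 and 5 in hyperplasia (adjusted p = 0.0505, limma). Dcdc2c had 0 in each GNP preparation and 2, 5 and 3 in hyperplasia, and the centromere gene Cenpu had 2 in each against 4 in each. Slc7a14 had 2 in each against 6 in each, and Sema6a, a transmembrane semaphorin of migrating granule cells, had 13, 12 and 12 against 17, 21 and 20. On the other side stood 1700006A11Rik with 4, 4 and 3 against 1 in each, the splicing factor gene Smndc1 with 8, 9 and 9 against 5, 5 and 4, Lrrc20 with 13 in each against 9, 7 and 7, and the DNA repair gene Brca1 with 4, 5 and 4 against 2 in each. None of these overlapped between the stages. Over all genes tested, the 3 hyperplasia preparations lay above all 3 GNP preparations at 458 genes (5.34%) and below them at 507 (5.91%).

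Genes were next taken by function, from 19 pathway lists and 7 marker lists. Of the 229 list genes in the more heavily bound set, 8 were called there, a share near the 2.81% of all its genes: Foxp2, Kcnb2 and Sema6a with more and Adgrd1, Dkk3, Meis1, Pax6 and Slc7a5 with fewer summits in hyperplasia. The calls of Kcnb2 and Dkk3 are not independent of the filter of that set. In the SHH pathway, 15 of 19 genes had enough summits to be tested, 5 with more and 10 with fewer summits in hyperplasia, and none was called. The list's median log2 difference was -0.21, against 0.00 over all genes, and -0.02 with the 15000 highest summits. Gli2, the main transcriptional activator of the pathway, had 42, 48 and 50 summits in GNP and 42, 35 and 34 in hyperplasia. The coreceptor gene Boc had 20, 19 and 19 against 15, 13 and 17, and the gene of the ligand release protein Disp1 had 11, 13 and 10 against 9, 7 and 7. The inhibitor gene Sufu had 11, 15 and 13 against 11, 8 and 12, and the coreceptor gene Gas1 had 11, 10 and 10 against 11, 9 and 7. Boc and Disp1 were the 2 genes of the list without overlap, both lower, where 5.91% of all genes were. Of the list's 106 regions, 1 was gained and 5 were lost, where 2.07% and 2.59% of all regions near genes were. Those lost included chr16:44507092-44507401 in Boc, with 6 GNP and 0 hyperplasia libraries, and chr13:63528149-63528696 in Ptch1, the SHH receptor, with 5 and 0.

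In the list of granule progenitor identity, 20 genes were tested, 6 with more and 13 with fewer summits, and none was called. The median was -0.14. Besides Pax6 and Meis1, Cxcr4, the receptor that holds progenitors at the pial surface, had 10, 10 and 9 summits in GNP and 16, 14 and 11 in hyperplasia. Its regions went both ways: chr1:128509038-128509394 had top summits in 5 hyperplasia libraries and 0 GNP libraries, and chr1:128622810-128623175 in 5 GNP libraries and 0 hyperplasia libraries. Tcf4, a partner of Atoh1, had 22, 24 and 16 against 18, 15 and 19. Of the list's 114 regions, 4 were gained (3.51%) and 7 lost (6.14%), where 2.07% and 2.59% of all regions near genes were. In the list of granule neuron differentiation, 19 genes were tested, 8 with more and 11 with fewer, none called, with a median of -0.05. Neurod2, a helix-loop-helix factor of maturing neurons, had 7, 8 and 8 in GNP, 4, 4 and 3 in hyperplasia and 4, 3 and 3 in tumors (log2 difference -0.98, SE 0.16, adjusted p = 0.0989, limma). Rbfox1, a splicing regulator, had 39, 37 and 34 against 48, 47 and 44, and its relative Rbfox3, the NeuN antigen, 47, 45 and 43 against 44, 37 and 37. Nfasc, an adhesion molecule of the axon initial segment, had 27, 27 and 30 against 25, 13 and 21, with 2 of its 18 regions lost. Of the 162 regions of the list, 2 were gained and 9 lost, beside the same shares of 2.07% and 2.59%.

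The genes of the NFI family themselves were heavily bound, and no difference was called. Nfia had 47, 52 and 45 summits in GNP and 54, 49 and 57 in hyperplasia, over 35 regions. Nfib had 27, 31 and 23 against 28, 23 and 27, and Nfix 17, 19 and 21 against 16, 17 and 17. Nfic had 11, 14 and 14 against 17 in each hyperplasia preparation, without overlap (log2 difference 0.38, SE 0.17, adjusted p = 0.391, limma). None of the family's 76 regions was gained or lost, where 2.07% and 2.59% of all regions near genes were. The list's median was 0.05, and -0.17 with all summits scaled. The list of cell cycle and DNA replication had 0 gained and 0 lost among 68 regions, beside the same shares. Of its 20 tested genes, 6 had more and 12 fewer summits, none was called or without overlap, and the median was -0.08 (0 with the 15000 highest summits). Mki67, the proliferation marker, had 15, 15 and 11 against 11, 13 and 12, and Cdk1 7, 6 and 8 against 5, 8 and 7.

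Each of 4 lists held 1 called gene: amino acid transport (Slc7a5, of 20 tested), adhesion G protein-coupled receptors (Adgrd1, of 18), nuclear receptors (Nr1h4, of 25) and dyneins (Dnah3, of 14). Their medians were 0.02, -0.15, 0.00 and 0.01. That of the adhesion receptors was 0 with the 15000 highest summits and 0.06 with all summits scaled. By direction, 10 transporters had more and 9 fewer summits, 12 nuclear receptors more and 11 fewer, 8 adhesion receptors more and 10 fewer, and 7 dyneins more and 6 fewer. The transporters Slc6a6, for taurine, and Slc1a3, for glutamate, had 18, 24 and 23 against 24, 22 and 21, and 13, 13 and 14 against 14, 14 and 17. Of the adhesion receptors, Adgrb1 had 17, 21 and 19 against 20, 16 and 15, and Adgrl4 had 4, 6 and 6 against 3, 2 and 3. Among the nuclear receptors, Rxra, the common partner, had 23, 22 and 18 against 20, 20 and 24, and Nr5a2 had 4, 5 and 5 against 7, 8 and 9. Of the dyneins, Dnah2 had too few summits over the 3 stages to be tested, with 0, 0 and 1 in GNP, 4, 4 and 5 in hyperplasia and 1, 0 and 2 in tumors. Both of its regions, chr11:69442464-69443005 and chr11:69456984-69457401, were gained, in 6 and 5 hyperplasia libraries and no GNP library.

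In the remaining lists no gene was called over all genes. Of 32 axon guidance and migration genes tested, 11 had more and 21 fewer summits, with 4 without overlap on either side (5.34% of all genes higher, 5.91% lower) and a median of -0.15, which was 0.00 with the 15000 highest and 0.01 with all summits scaled. Astn2, needed for neurons to glide along glia, had 22, 21 and 23 summits in GNP and 25, 31 and 29 in hyperplasia, and the repellent gene Slit1 had 27, 29 and 31 against 25 in each. Among 20 forkhead genes, 12 had more and 8 fewer, with a median of 0.22 (0.02 and 0.06 under the same alternatives). Foxp2 had 5, 4 and 6 in GNP, 8, 9 and 11 in hyperplasia and 13, 15 and 13 in tumors (log2 difference 0.84, SE 0.21, adjusted p = 0.0391 over the 3059 more heavily bound genes, limma). Its region at chr6:15285247-15285613 was in 5 hyperplasia and 5 tumor libraries, and no GNP library listed a summit there at any score. Foxp1 had 22, 23 and 24 in GNP, 30, 27 and 31 in hyperplasia and 34, 38 and 38 in tumors. In the WNT list, 13 of 24 had more and 10 fewer, with a median of 0.03 (-0.12 with the 15000 highest); Axin2, a negative feedback target of the pathway, had 12, 13 and 11 against 20, 15 and 19. In the BMP and TGF-beta list, 12 of 21 had more and 9 fewer, with a median of 0.12, and Smad3 had 10, 13 and 10 against 15, 18 and 14.

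The Notch list had 9 genes with more and 7 with fewer of 17 tested, and a median of 0.09 (-0.02 with all summits scaled). Its coactivator genes Maml2 and Maml3 stood on opposite sides, with 9, 10 and 9 against 13, 19 and 11, and 32, 40 and 35 against 30, 29 and 28. In the potassium channel list, 14 of 29 had more and 14 fewer. Kcnb2, of the delayed rectifier type, had 4, 3 and 3 against 6, 7 and 9 and passed among the more heavily bound genes (log2 difference 1.02, SE 0.26, adjusted p = 0.0407, limma). It averaged under 5 summits in GNP and passed the filter of 5 through the other stages, so its call is not independent of that filter. Of 21 cadherins tested, 10 had more and 11 fewer, with a median of -0.05 (0.14 and 0.05 under the alternatives), and of 24 glutamate and GABA receptor genes 11 had more and 12 fewer. The neural stem and progenitor list had 6 with more and 4 with fewer of 11, and a median of 0.04, which was 0.58 with the 15000 highest and -0.17 with all summits scaled. Sox2 had 5, 7 and 5 against 4, 2 and 3. The 13 chromatin and tumor suppressor genes tested had 4 with more and 9 with fewer and a median of -0.13 (0.02 with all summits scaled). Gse1, the most heavily bound of that list, had 76, 74 and 79 against 80, 70 and 71.

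Marker genes gave the makeup of the preparations only indirectly, since binding is not expression. Atoh1, which defines granule progenitors, had 6, 5 and 5 summits in GNP and 6, 6 and 5 in hyperplasia. The 6 progenitor markers summed to 33 to 35 in GNP and 24 to 30 in hyperplasia. Pax6, 1 of the 6, alone had 16, 15 and 18 against 10, 6 and 8. Of the 5 tested, 2 had more and 3 fewer summits, with a median of -0.23 (-0.0746 with the 15000 highest summits). The 12 astrocyte markers summed to 52 to 67 and 54 to 68 (Aqp4 at 0), the oligodendrocyte markers to 36 to 41 and 30 to 43 (Myrf at 0), and the microglial markers to 6 to 8 and 8 to 13 (Aif1 at 0). Vascular and meningeal markers summed to 38 to 54 and 32 to 49, with a median of -0.49 over 5 tested (0.14 with all summits scaled), and those of Purkinje cells and interneurons to 68 to 74 and 64 to 77 (Pcp2 at 0). Markers of non-neural tissues summed to 1 to 3 and 3 to 5, with Myh6, Myh7, Krt14, Sftpc and Umod at 0. No marker was called over all genes. What part other cells had in the differences was not tested.

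Binding was also compared place by place. Top summits of all 18 libraries were widened by 100 bases to each side and merged, and the 42004 regions with a summit of at least 3 libraries were kept. A region was counted as gained with top summits in at least 5 of 6 hyperplasia libraries and at most 1 of 6 GNP libraries. Lost regions met the same rule with the stages exchanged. By this rule 900 regions were gained (2.14%) and 1161 lost (2.76%), while 7559 (18%) were present in all 12 libraries. With 6 libraries against 0, 160 were gained (0.381%) and 191 lost (0.455%). No test was run on single regions, and these are counts by a rule. Just outside the rule, with 4 libraries also accepted on the high side, there were 1920 and 2226. With the hyperplasia library that stood apart left out and at least 4 of the 5 others required, the gained regions were 1523 and outnumbered those lost by 215. That rule is also looser, and the cause was not tested. The gained regions were also the more numerous by 72 with the NFIB libraries alone, so that no direction is read from the 2 counts.

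**Figure D3:**
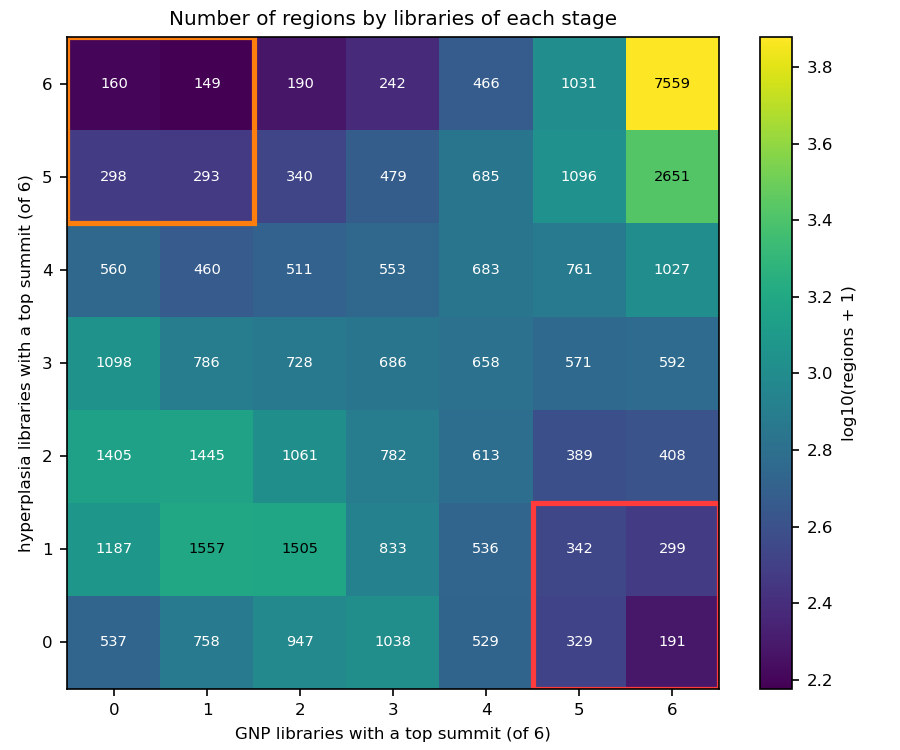
Number of regions by how many of the 6 GNP libraries (x axis) and of the 6 hyperplasia libraries (y axis) had a top summit there. The orange box marks the 900 gained and the red box the 1161 lost regions; the corner of all 12 libraries holds 7559.

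Gained and lost describe entry into and exit from the top 30000 more than presence and absence. On average, 62.2% of the GNP libraries listed a summit of some score in a gained region, from 33.8% to 82.9% by library, and 52 of the 900 (5.78%) had none in any of the 6. In lost regions 64.0% of the hyperplasia libraries listed one, from 41.9% to 82.3%, and 23 of 1161 (1.98%) had none in any. Even among regions with 6 against 0, the shares were 50.7% and 53.2%.

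The 10 gained regions that ranked best in the hyperplasia libraries, of those with 6 against 0, are described by their values. The first lay 52.0 kb from Cdca2, a cell division gene, at chr14:67620989-67621470, with scores of 8.81 to 29.7 in the 6 hyperplasia libraries, never below rank 6871, and with top summits in all 6 tumor libraries. Only 2 GNP libraries listed a summit there. Next came chr3:122381456-122381928 near Bcar3, an adaptor of growth factor signalling, with scores of 11.6 to 53.0, and chr1:75040478-75040854 in Nhej1, a factor of DNA end joining, with 9.20 to 37.6. They were in 5 and 6 tumor libraries. A region in Sema3e, a secreted semaphorin (chr5:14195237-14195578), was in 6 tumor libraries, and 1 GNP library listed a weaker summit. The rest of the 10 lay at Agmo, Hs6st3, Crabp1, Cacna1i and Galntl6 and, with no gene within 100 kb, at chr8:120962628-120963027. At the region near Crabp1, a retinoic acid binding protein (chr9:54750178-54750645), all 6 GNP libraries listed a summit below the top list. All 10 were in at least 3 tumor libraries.

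The 10 lost regions that ranked best in GNP had top summits in 0 to 6 tumor libraries. The first lay 22.2 kb from Pgm1, an enzyme of glycogen metabolism, at chr4:100009305-100009612, with scores of 9.57 to 49.2 in the GNP libraries and top summits in 4 tumor libraries. That in Zfp423, a zinc finger factor needed for granule precursor growth (chr8:87836978-87837265), had scores of 9.44 to 38.5 and was also in 4. Regions in Snd1 (chr6:28867959-28868215) and Tnrc6b (chr15:80859364-80859804) were in 0 tumor libraries, those in Vps13d and Adam12 in 1, that in Prdm10 in 3, those in Kcnip1 and Dnaic1 in 5, and that in Gtf3c5 (chr2:28576581-28577235) in 6. At the Snd1 region 1 hyperplasia library listed a weaker summit, and at the Prdm10 region all 6 did. The strongest shared sites were of another order: at Tbl2 the scores of the GNP libraries ran from 44.8 to 135, and Ubxn6, Edn2 and Rab40c followed, none below rank 101 in any of the 12.

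Of the 12946 genes with a region, gained regions were near 709 and lost regions near 863, with 115 in common. Genes with many regions can hold both kinds more easily, and the overlap was not tested. At 59 genes 2 or more were gained, and at 98 genes 2 or more were lost. Adra1b led the gained side with 4 of 8 regions, beside Asic2, a proton-gated channel gene of more than 1000 kb, with 4 of 32. Asic2 had 43, 41 and 40 summits in GNP and 47, 45 and 41 in hyperplasia. Pdzd2 had 3 of 8 regions gained, with 8, 9 and 5 summits against 16, 12 and 14. On the lost side, Arpp21, a neuronal phosphoprotein gene, had 3 of 9 regions, with 14, 15 and 13 against 7, 7 and 10. The synaptic organizer gene Tenm2 had 3 of 28 lost, with 48, 42 and 47 against 35, 39 and 32. Exchange within a gene also occurred: Msra, a repair enzyme of oxidized methionine, had 3 gained and 2 lost of 20, with 41, 39 and 34 against 33, 28 and 32, and Gfra2, a neurturin receptor, had 2 gained and 3 lost of 21, with 18, 18 and 23 against 28, 17 and 23.

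The tumor libraries, which the rule for gained and lost regions did not use, differed between these sets. Gained regions had a top summit in 58.3% ± 4.90 of cases per tumor library (SD, n = 6; range 51.6 to 63.9), close to the 56.2% of all regions. Lost regions had one in 33.9% ± 4.35 (28.1 to 40.7). The sets did not overlap in any tumor library, and the values were 60.3% and 27.6% for 6 against 0. In 285 lost regions (24.5%) no tumor library had a top summit, against 51 gained regions (5.67%), and in 45 lost (3.88%) and 157 gained regions (17.4%) all 6 did. For comparison, regions in at least 5 libraries of both stages had one in 90.3%, and those in at most 1 of both in 39.7%. These shares are given without a test. Regions were built from the top summits of all 18 libraries, and a region seen in few of the 12 needed tumor summits to be kept.

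**Figure D4:**
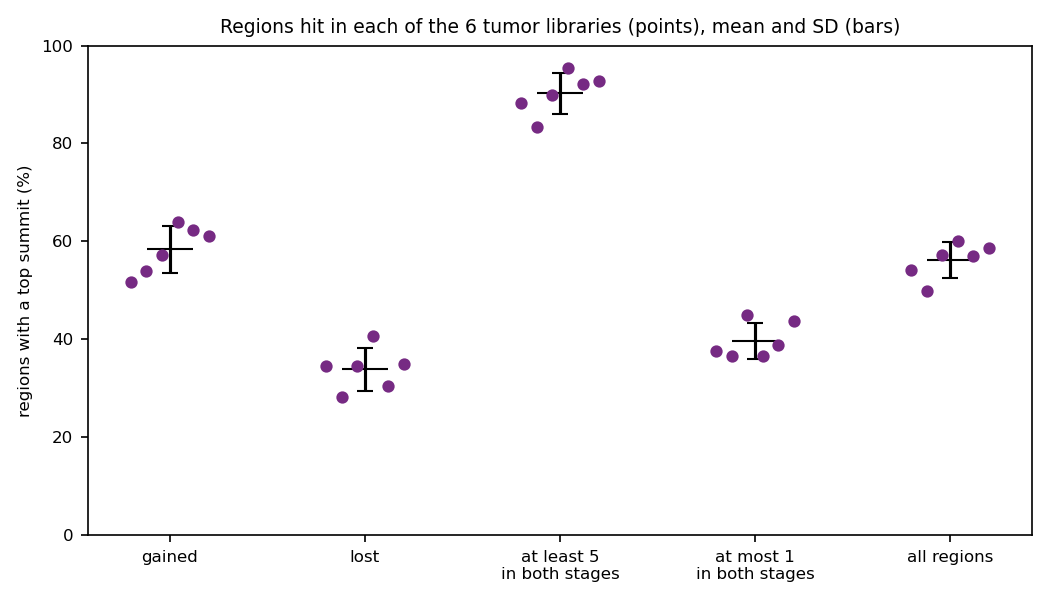
Percentage of regions with a top summit in each of the 6 tumor libraries (y axis) for sets of regions (x axis): gained, lost, in at least 5 libraries of both stages, in at most 1 of both, and all. Points are tumor libraries; gained regions lie between 51.6% and 63.9% and lost regions between 28.1% and 40.7%.

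Both kinds of region lay away from gene ends. Of gained regions 6.44% were within 1 kb of a gene end, and of lost regions 7.06%, against 22.6% of all regions and 34.9% of those in all 12 libraries. Inside genes lay 46.3% and 48.3%, between genes within 100 kb 33.2% and 28.2%, and farther away 14.0% and 16.5%. The top lists as wholes had nearly the same makeup. The share of top summits within 1 kb of a gene end was 26.2% ± 1.38 in GNP and 25.1% ± 2.01 in hyperplasia (SD, n = 3 each, exact permutation test, two-sided, p = 0.6), and the other 3 location classes had p of 0.5 to 1. By chromosome, 7 of 19 autosomes had shares without overlap (p = 0.1 each, the smallest an exact permutation of 3 against 3 allows, adjusted p = 0.271). The shift was small: chromosome 4 held 7.57% ± 0.0780 of the summits in GNP and 7.27% ± 0.0188 in hyperplasia.

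How alike the libraries were was measured on the regions they hit. The Jaccard index, the number of regions hit by both libraries over the number hit by either, averaged 0.597 within stages and 0.532 between them, pairs from the same preparation left out. The difference of 0.0652 had an exact permutation p of 0.1, two-sided, the smallest possible with 3 preparations against 3. Pairs within GNP averaged 0.627 and pairs within hyperplasia 0.568, or 0.616 when the library that stood apart was left out. Libraries of a preparation were no closer to each other than to the rest of their stage, with 0.628 and 0.626 in GNP and 0.564 and 0.569 in hyperplasia. The highest share of top summits at identical positions in any pair of libraries was 0.537%.

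**Figure D5:**
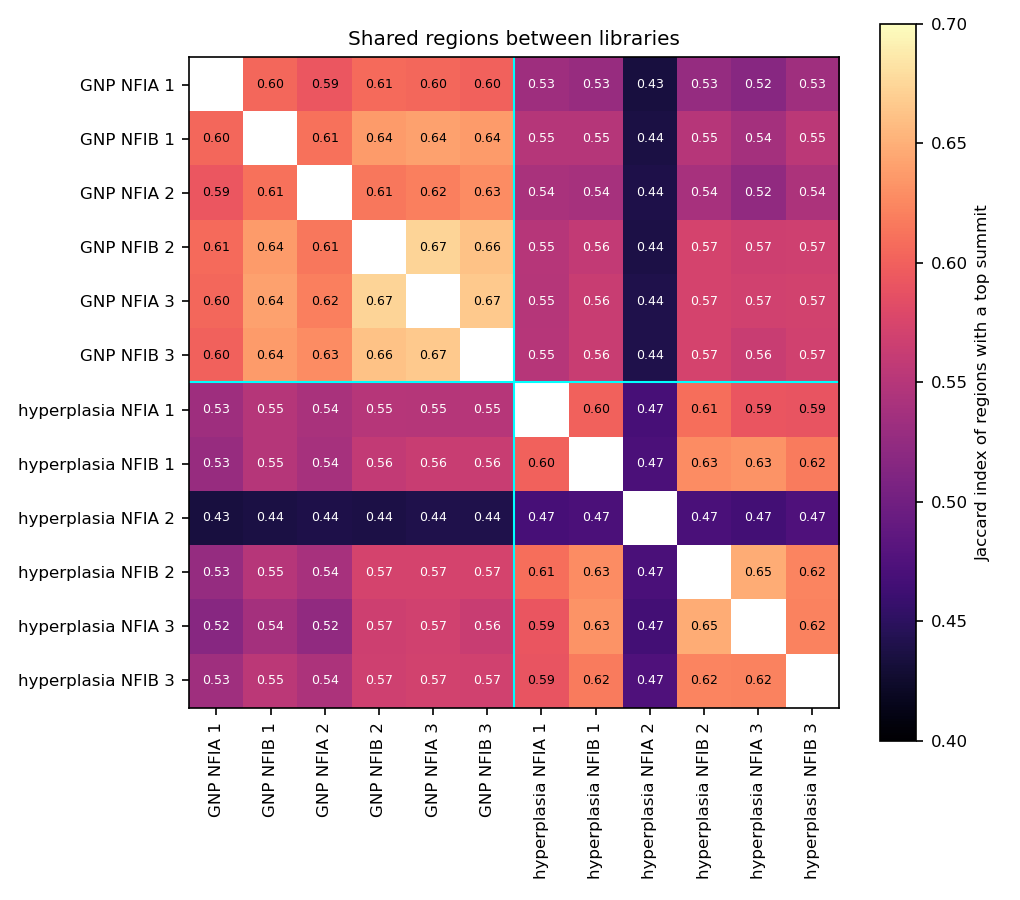
Jaccard index of regions hit for each pair of the 12 libraries, as a heat map (brighter is higher) with GNP libraries first and hyperplasia libraries after on both axes. Pairs within GNP average 0.627 and pairs between stages 0.532, and the second NFIA library of hyperplasia is a dark row and column, with a mean of 0.470 to its own stage.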

How the data were processed

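CUT&Tag summit lists of 12 libraries (6 GNP, 6 hyperplasia), with 6 tumor libraries in the same fit, were analysed. The authors deposited, per library, summit positions with the −log10 p or q of their peak caller as score; which of the 2 is not given. The submitters' processing notes name Bowtie2, MACS2 and the build mm10, without versions, and no label states whether peaks were called against a control. Reads were not used, depth is unknown, and so is counting error. Sites with a score under 2.00 are missing from the lists.

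Samples were grouped by their labels. The members and lists were chosen with earlier results of these data known. From each list the 30000 autosomal summits of highest score, ties broken at random with a fixed seed, went to the nearest of 20665 protein-coding RefSeq gene spans (GRCm38.p6) within 100 kb, the shortest where spans overlapped. Counts of both libraries of a preparation were added, and genes with a mean of at least 2 were fitted in limma 3.58.1 (R 4.3.3; trend, empirical Bayes) on log2(summits + 0.5) over 9 preparations, with Benjamini-Hochberg adjustment. The procedure was tested on simulated data. Single values used exact permutation tests over preparations (SciPy 1.17.1). Of 514 list genes, 500 matched a span. Alternatives varied the number of summits, scaling, filters, libraries, dates, assignment and replicates.

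Genes named are those called, the next 6 in each direction by p, the 10 in each direction called with a mean of at least 5, the 4 most bound and 2 of smallest p of each list, those with the most gained or lost regions, and the best-ranked regions. Not all of each are printed. Boc, Disp1 and Sufu are among them, while Ptch1, Il12a and the other genes with only a region or a name were chosen after their values were seen. The rule for the 10 in each direction called with a mean of at least 5 was also added after the values were seen.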

Additional observations from a re-analysis of the deposited data

Results flagged for a closer look

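Within each stage of 6 libraries, the highest and the lowest value were examined for a gap to the others that was wide against the range of the group. Of 54 groups examined, 9 had such a value. Chance alone gives about 1 in 20 groups for continuous values, a rate that does not hold for small counts with ties.

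The second NFIA library of hyperplasia accounted for 4 of them. It had 58.2% of its top summits in regions (others 84.8% to 94.3%), a mean Jaccard index of 0.47 to its own stage (others 0.572 to 0.596), top summits in 68% of the gained regions (others 89.8% to 95.6%) and in 40.5% of all regions (others 58.0% to 59.1%). Its list was also the longest of the 12, at 362180 summits. Without it, with its partner library counted 2 times, 6 genes were called, of which 4 were among the 7.

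The other 5 were single libraries at single genes. At Adgrd1, 1 GNP library had 8 summits where the others had 10 to 11. At Mrtfb, 1 hyperplasia library had 8 where the others had 5 to 6. At Sema6a, 1 GNP library had 8 where the others had 5 to 6. At 1700006A11Rik, 1 GNP library had 1 where the others had 2, and at Brca1, 1 GNP library had 3 where the others had 2.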

How the results depend on the processing

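The count of genes called (7) was 51 with the 15000 highest summits, 0 with the 45000 highest (1308 at an unadjusted p under 0.05, limma), 0 with all summits scaled (726) and 0 with scores of at least 5 scaled (574). It was 3 with 2 added in place of 0.5, 71 with no filter, 86 with a mean of at least 5, 12 in a fit of the 6 preparations alone, 29 with NFIA and 56 with NFIB libraries alone, 20 with libraries paired by the number in the data names, 137 with single libraries and the preparation as a random block, 4 with the title date as a term, 253 with the first date alone, 1 with list length as a covariate and 11 with genes within 50 kb. Leaving out each preparation in turn gave 0 to 16. With the preparation number as a replicate block it was 0 (1101 at an unadjusted p under 0.05, limma). The labels give no reason to pair the numbers, and the deviations of same-numbered preparations correlated by 0.044, 0.014 and 0.065. The 7 genes kept their direction in every alternative that gave a value, except Sepsecs (-0.33) and Nod2 (-0.15) with all summits scaled.

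Gained regions (900) were 522 with the 15000 highest summits, 2052 with all, 160 for 6 against 0, 1920 for at least 4 against at most 1, 1430 for at least 5 against at most 2, 1360 by preparation, 316 on the first and 2370 on the second date, 564 with NFIA libraries alone, 1523 with the hyperplasia library that stood apart left out, and 1331 to 2221 without each preparation in turn. Lost regions (1161) were 730, 191, 2226 and 1958 with the 15000 highest and the 3 other criteria, 502 and 2221 by date, and 1637 to 2206 without each preparation. In 2 alternatives chosen after seeing the data, without that library under a rule of all against none, 306 were gained and 223 lost, and 1809 were gained with the second NFIA library of each stage left out. Gained minus lost turned positive with all summits (624), by preparation (12), on the second date (149), with NFIB alone (72), without that library (215, and 83 and 104 in the added alternatives) and without the second hyperplasia preparation (584, in a range of -862 to 584). The cause was not tested.

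With all summits, the difference in the share at gene ends was -2.88 percentage points, and in the share beyond 100 kb 2.12. Chromosomes without overlap were 4 with the 15000 highest summits and 4 with all. The tumor share of lost regions was 27.6% for 6 against 0. List medians under the 15000 highest summits were -0.0205 (SHH), 0 (cell cycle), 0.58 (stem), 0 (adhesion receptors), 0.00267 (guidance), 0.14 (cadherins), -0.12 (WNT), 0.16 (Notch), 0.10 (nuclear receptors), 0.0201 (forkhead), -0.0746 (progenitor markers) and 0.73 (astrocyte markers). With all summits scaled they were -0.17 (NFI), -0.17 (stem), 0.0168 (chromatin), 0.0563 (adhesion receptors), 0.0126 (guidance), 0.0524 (cadherins), -0.0203 (Notch), 0.0645 (forkhead), 0.0323 (oligodendrocyte), 0.14 (vascular) and 0.0734 (Purkinje and interneuron). Depth is unknown, so it sets no bound that can be stated here.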
